A study of Mus musculus with 7 samples.

Results

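The genes described here are 40 genes of TGF-beta, activin and BMP signalling, measured in mouse primary keratinocytes in which Trp63 had been silenced. They were listed by name. All 40 had a probe set that the platform annotation gives to that gene alone, out of 12393 genes with such a probe set, and each gene was read from its brightest one. One group was made up of 5 arrays of cells transfected with small interfering RNA (siRNA) against Trp63 (replicates 1, 2, 3, 4 and 7). The other was 2 arrays of cells given a non-specific control siRNA (replicates 5 and 6). All cells were taken 48 h after transfection and were primary keratinocytes, with no strain, age or genotype given in the labels. Whether the arrays of a group came from different cultures is not in the labels, so the spread that p-values rest on is that between these samples and may be technical. The number of arrays limits the precision of every value.

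TGF-beta, activin and BMP ligands are secreted dimers that bring type II and type I receptor kinases together at the cell surface. The type I receptor then phosphorylates a receptor Smad, Smad2 or Smad3 for TGF-beta and activin and Smad1, Smad5 or Smad9 for BMP, which enters the nucleus with Smad4. In epidermis TGF-beta is known for holding back keratinocyte proliferation, and BMP for its part in the choice of epidermal fate and in differentiation. Trp63 encodes p63, the p53 family transcription factor on which stratified epithelia depend.

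Trp63 fell on every silenced array, from 1565 ± 167 (SD, n = 2) with control siRNA to 503 ± 31.1 (SD, n = 5), in intensity units of the deposited table (log2 difference -1.61, SE 0.088, limma adjusted p = 1.0e-05), and the other 2 Trp63 probe sets changed by -0.49 and -0.54. Differences are on the log2(intensity + 16) scale, Trp63 siRNA minus control siRNA, and a gene passed where limma's p, adjusted over all 22626 probe sets, was under 0.05. Keratinocyte markers were bright, led by Krt14 and Krt5, and all 11 measured (Trp63 among them) were lower after silencing, with a summed level of 48533 to 53332 against 67119 to 70470. Of 17 fibroblast markers, of which Col5a2 and Col6a2 were brightest, 2 were higher (Col1a1 and Col5a2), and their sum was 3050 to 3335 against 2519 to 2908, with 6 of 17 above the median probe set and a median difference of 0.036. The sum of 9 melanocyte markers, led by Dct and Pmel, split the arrays without regard to group, from 10230 to 12153 in silenced replicates 1 and 2 and control replicate 5 and from 6839 to 7382 in the others. Of 12 immune markers (brightest Csf1r and Cd3e) 2 were higher (Cd68 and Cd14) and 1 lower (Tyrobp), these being named after their values were seen. Of 8 endothelial markers (brightest Egfl7 and Emcn) none passed with limma (1, lower, at an unadjusted p under 0.05). No tested probe set was at 0, the lowest on each array being 58.5 to 60.7. A value above 0 thus does not show that a marker was present. The ratio of the 3' to the 5' beta-actin control probe set was 1.14 to 1.25 on silenced arrays against 1.30 to 1.36 on control arrays. The same ratio for Gapdh was 0.905 to 0.938 against 0.980 to 0.983, also with no overlap. Bacterial spike transcripts were higher on silenced replicates 2, 3 and 7 (mean log2 level 8.70 to 8.87) than on the other 4 arrays (8.20 to 8.39). The part of these differences in the results below was not tested beyond the values given with them. In a culture of several cell types, fewer cells of a type and less RNA per cell cannot be told apart.

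Of the 40 genes, 9 rose, 5 fell and 26 did not pass. Among the brightest probe sets of all genes 16.6% passed (8.03% higher and 8.57% lower). Above the median probe set lay 25 of the 40 genes. Where only probe sets above the median were kept, 27.2% of them passed. The median difference of the 40 genes was 0.025, beside -0.041 for the brightest probe sets of all genes. Tgfb3, Inhba, Inhbb, Acvr1, Bmpr2, Smad5, Smad7, Id3 and Id4 rose, and Tgfb1, Bmp7, Fst, Id2 and Tgfbi fell. For 20 of the 40 genes, beside 38.3% of all genes, the 5 silenced arrays lay all above or all below both controls, and this held for 13 of the 14 genes that passed, the exception being Inhba. Each of the 14 kept its sign under every alternative tried, whereas 6 (Tgfb1, Tgfb3, Bmp7, Smad7, Id3 and Tgfbi) passed under every one. Leaving out silenced replicate 3 or 7 left 5 of the 9 genes that rose. Leaving out either control ended several of these calls as well. Without control replicate 6, Tgfbr2, which had not passed with all arrays, differed by 0.84. With the spike split as a further term (the spike block), which sets only silenced replicates 1 and 4 against the controls, 4 rose. Only 3 fell with the spike block, and 3 when control replicate 6 was dropped.

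**Figure D1:**
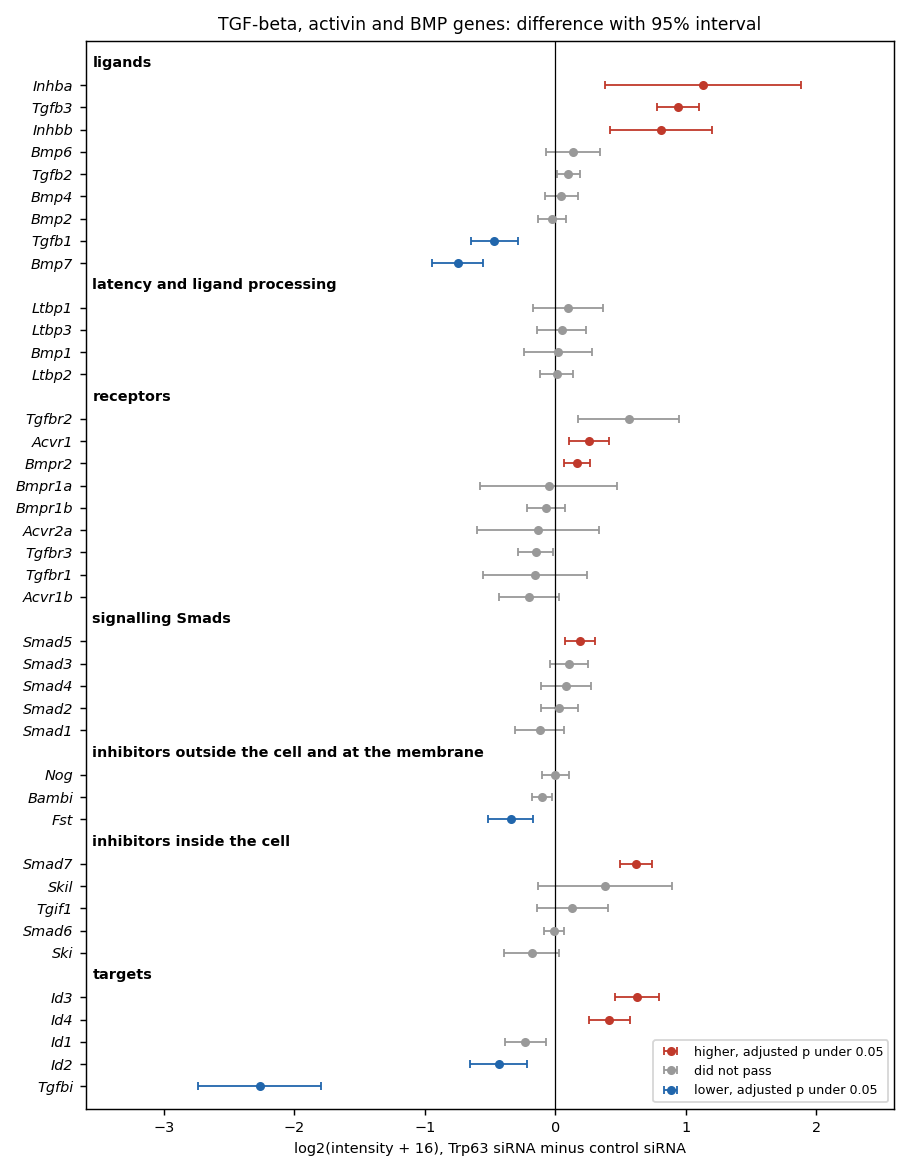
Difference of each of the 40 genes between Trp63 siRNA (n = 5) and control siRNA (n = 2) on the log2(intensity + 16) scale, grouped by role, with points for the limma estimate and bars for its 95% confidence interval. Red genes rose (9), blue genes fell (5) and grey genes did not pass (26); Tgfbi lies farthest from 0 at -2.27.

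The ligand genes changed in opposite directions. Of 9, 3 rose, 2 fell and 4 did not pass. Tgfb3, a TGF-beta isoform gene, read 216, 180, 189, 202 and 211 on silenced replicates 1, 2, 3, 4 and 7 and 97.4 and 94.6 on control replicates 5 and 6. Every silenced value was above both controls, and the mean over all arrays lay below the median probe set (213), as did every value but that of silenced replicate 1. The mean was 200 ± 15.3 (SD, n = 5) against 96.0 ± 1.96 (SD, n = 2), a 1.92-fold rise (log2 difference 0.94, SE 0.071, adjusted p = 5.6e-05). Tgfb1, the gene of the isoform first purified and the best studied, moved the other way. It read 233, 205, 190, 189 and 209 on silenced arrays in the same order and 290 and 288 on controls, with no overlap, and fell 1.38-fold (log2 difference -0.47, SE 0.080, adjusted p = 0.00446). Tgfb2 was below the median probe set in both groups, at 104 ± 3.99 (SD, n = 5) against 96.2 ± 1.30 (SD, n = 2), and did not pass (log2 difference 0.10, adjusted p = 0.119). It passed only when arrays were scaled to each other (adjusted p = 0.0472 with quantile normalisation and 0.0469 with median centring).

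Inhba and Inhbb, which encode the beta chains of activin A and activin B, both rose. Inhba read 729, 1385, 1903, 1847 and 1847 on silenced replicates 1, 2, 3, 4 and 7 against 738 and 583 on the controls. Silenced replicate 1 thus lay between the control values, while the other 4 lay well above them. Inhba averaged 1542 ± 501 (SD, n = 5) against 660 ± 110 (SD, n = 2), a 2.19-fold difference with the widest interval of the 14 genes that passed (log2 difference 1.13, SE 0.33, 95% interval 0.38 to 1.89, adjusted p = 0.0492). Inhba passed under 7 of 19 alternatives. Without silenced replicate 1 its difference was 1.38 (adjusted p = 0.000162), and without any other single array the call ended (adjusted p = 0.142 without control replicate 5, 0.253 without 6 and 0.0872 to 0.0943 without silenced replicate 2, 3, 4 or 7). The spike block gave 0.81 (adjusted p = 0.242), and eBayes without a trend, robust eBayes, quantile normalisation, median centring and the mean over probe sets ended the call as well. Inhbb read 951, 782, 1248, 1157 and 1177 against 532 and 655, with no overlap, and rose 1.75-fold (log2 difference 0.81, SE 0.17, adjusted p = 0.0128). Its call ended without control replicate 5 (adjusted p = 0.130) or 6 (0.0511) and with the spike block (0.0663), and its dimmer probe set gave 0.26 (adjusted p = 0.125), so that the mean over both was 0.54.

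Among BMP ligand genes Bmp7 fell. It read 199, 184, 162, 160 and 164 on silenced replicates 1, 2, 3, 4 and 7 against 311 and 293 on the controls. All silenced values were below both controls, and the mean over all arrays (210) lay just below the median probe set (213). The fall was 1.68-fold (log2 difference -0.75, SE 0.087, adjusted p = 0.000602), and the other 2 Bmp7 probe sets also fell (differences of -0.40 and -0.40, adjusted p = 0.0053 and 0.00177). Bmp2, Bmp4 and Bmp6 were below the median probe set and did not pass, with differences of -0.025, 0.044 and 0.14. Their 95% intervals were -0.13 to 0.08, -0.08 to 0.17 and -0.07 to 0.34. All 5 silenced values of Bmp6 were above both controls, but by less than 1 unit for the lowest.

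**Figure D2:**
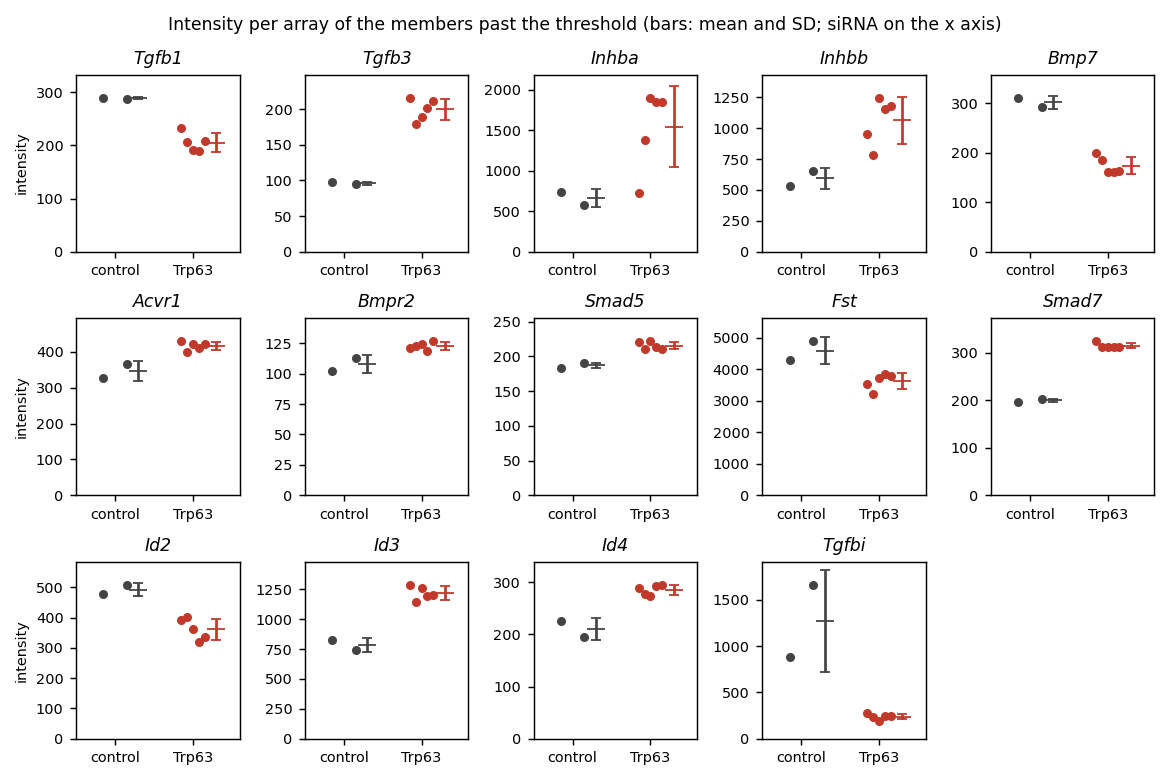
Intensity (linear, from 0) of the 14 genes that passed, with 1 point per array, black for control siRNA (n = 2) and red for Trp63 siRNA (n = 5, replicates 1, 2, 3, 4 and 7 from left to right), and bars for mean and SD. Silenced and control points do not overlap in 13 panels; in the Inhba panel replicate 1 (729) lies between the controls.

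Genes for latency and ligand processing gave 0 calls of 4 with limma, and 0 at an unadjusted p under 0.05. Ltbp1, Ltbp2 and Ltbp3 encode matrix proteins that store latent TGF-beta, and Bmp1 encodes not a ligand but a metalloprotease that cuts procollagens and the BMP antagonist chordin. Their differences at the brightest probe set ran from 0.010 (Ltbp2) to 0.096 (Ltbp1), each with silenced and control values that overlapped. The second Ltbp3 probe set, below the median, read 225 ± 15.2 (SD, n = 5) against 156 ± 1.67 (SD, n = 2) and passed (log2 difference 0.48, adjusted p = 0.00165). The Ltbp3 probe sets therefore disagree, and the gene passed when they were averaged (0.27, adjusted p = 0.0242).

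Of 9 receptor genes, 2 rose by small amounts, none fell and 7 did not pass, among them Tgfbr3 with an unadjusted p under 0.05 and a lower value. Acvr1, which encodes the type I receptor ALK2 of BMP signalling, read 430, 401, 422, 412 and 423 on silenced replicates 1, 2, 3, 4 and 7 against 328 and 366 on controls (log2 difference 0.26, SE 0.068, adjusted p = 0.0319). Bmpr2, the BMP type II receptor gene, read 121, 123, 125, 118 and 127 against 102 and 113 (log2 difference 0.17, SE 0.044, adjusted p = 0.0342). Groups did not overlap for either gene, and Bmpr2 lay below the median probe set. The 2 fainter Acvr1 probe sets did not pass (0.12 and -0.068), and their groups overlapped. Acvr1 passed under 12 of 19 alternatives and Bmpr2 under 12 of 17. The Acvr1 call ended without control replicate 5 (adjusted p = 0.263) or 6 (0.0618) or silenced replicate 3 (0.0714), 4 (0.0678) or 7 (0.0790), with the spike block (0.0934) and with the mean over probe sets (0.163). The Bmpr2 call ended without control replicate 5 (0.10, adjusted p = 0.297) or silenced replicate 2 (0.0632), 3 (0.0702) or 7 (0.0731) and with the spike block (0.158).

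Tgfbr2, the type II receptor gene of TGF-beta, did not pass at its brightest probe set but lay close to the threshold. It read 2631, 2675, 3562, 3542 and 3538 on silenced replicates 1, 2, 3, 4 and 7 against 1756 and 2588 on control replicates 5 and 6. All 5 silenced values were above both controls, by little for replicates 1 and 2 (log2 difference 0.56, SE 0.17, adjusted p = 0.0563). Within the arrays of high melanocyte marker level (silenced 1 and 2, control 5) the difference was 0.59, and within those of low level (silenced 3, 4 and 7, control 6) it was 0.45. The sets were less alike for Inhba (0.44 in the high set and 1.65 in the low set) and Skil (0.10 and 0.54). In the high set Inhba read 729 and 1385 on silenced replicates 1 and 2 against 738 on control replicate 5. Skil read 794 and 1241 there against 924, replicate 1 being below the control for both genes. Each set holds 1 control, and why the sets differ was not tested. With that split as a block Tgfbr2 passed (0.52, adjusted p = 4.0e-05). It also passed with array weights (adjusted p = 0.00763), and without silenced replicate 1 (0.0192). Its size depended on the control array, at 0.84 without control replicate 6 (adjusted p = 0.0418) and 0.29 without control replicate 5 (adjusted p = 0.445). In all, Tgfbr2 passed under 4 of 19 alternatives. A second, dimmer Tgfbr2 probe set read 423 ± 97.2 (SD, n = 5) against 242 ± 39.6 (SD, n = 2) and passed (log2 difference 0.75, adjusted p = 0.0386). The dimmest, with a mean of 89.8 and below the median probe set, did not pass and had the other sign (-0.066, adjusted p = 0.587).

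The other receptor genes had differences from -0.20 (Acvr1b, activin type I receptor) to -0.050 (Bmpr1a, BMP type I receptor), with Bmpr1b at -0.072, Acvr2a, an activin type II receptor, at -0.13, Tgfbr3, the co-receptor betaglycan, at -0.15 and Tgfbr1, the TGF-beta type I receptor, at -0.16. For Tgfbr3 and Acvr1b all silenced values were below both controls, at 158 to 180 against 194 and 181 for Tgfbr3 and 532 to 669 against 684 and 697 for Acvr1b. Dimmer probe sets had the other sign for Bmpr1a (0.14, 0.33, 0.14 and 0.026), Tgfbr1 (0.018 and 0.019) and Acvr2a (0.0094). That of Acvr1b kept its sign (-0.075), and none of these passed. For 3 receptor genes silenced replicate 1 was far below the other arrays. Bmpr1a read 465 on that array against 837 to 912 on the other 4 silenced arrays and 719 and 875 on controls. Acvr2a read 205 against 353 to 380, with 356 and 365 on controls, and Tgfbr1 read 186 against 258 to 314, with 268 and 332. Without that array the differences were 0.12 for Bmpr1a, 0.026 for Acvr2a and -0.036 for Tgfbr1, and none passed. Over all probe sets, silenced replicate 1 stood apart from the other 4 silenced arrays at 5.89%, against 0.393% to 1.61% for each of those, by Dixon's 95% criterion.

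**Figure D3:**
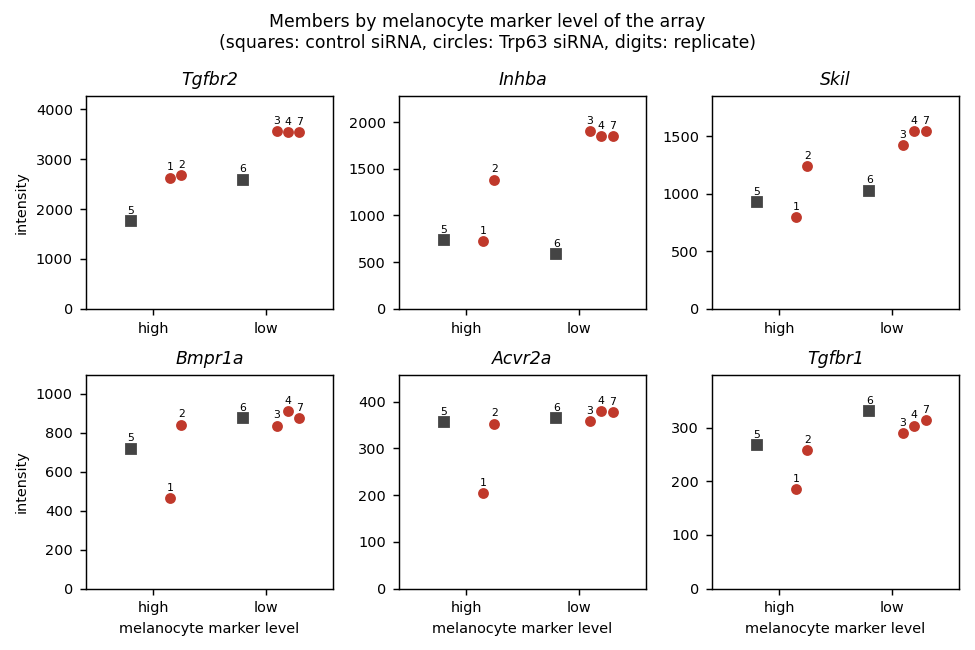
Intensity (linear, from 0) of 6 genes by the melanocyte marker level of the array, high on silenced replicates 1 and 2 and control 5 and low on silenced 3, 4 and 7 and control 6; squares are control siRNA and circles Trp63 siRNA. Tgfbr2 circles lie above the square in both sets. Replicate 1 is the lowest circle in all 6 panels, by little in that of Tgfbr2.

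The Smad genes that carry the signal varied little. Smad5, a BMP receptor Smad, read 221, 211, 222, 214 and 211 on silenced replicates 1, 2, 3, 4 and 7 against 184 and 190 on controls, with no overlap, and rose 1.14-fold (log2 difference 0.19, SE 0.051, adjusted p = 0.0348). It passed under 11 of 18 alternatives, and the call ended without control replicate 5 (adjusted p = 0.207) or 6 (0.123) and without silenced replicate 3 (0.0804), 4 (0.0730) or 7 (0.0662), with the spike block (0.0869) and with the mean over probe sets (0.0640). Smad5 and Smad3 lay below the median probe set. Smad1, Smad2, Smad3 and Smad4 did not pass. The 95% intervals of their differences were -0.31 to 0.06, -0.11 to 0.17, -0.04 to 0.25 and -0.11 to 0.28.

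Of 3 inhibitor genes whose products act outside the cell or at the membrane, 1 fell (Fst) and 2 did not pass, and of 5 that act inside it 1 rose (Smad7) and 4 did not pass. The difference between these groups was not tested. Fst encodes follistatin, which binds activins and keeps them from their receptors. It read 3538, 3214, 3713, 3829 and 3786 on silenced replicates 1, 2, 3, 4 and 7 against 4289 and 4884 on controls, all silenced values being lower, and fell 1.27-fold (log2 difference -0.34, SE 0.076, adjusted p = 0.0156). The call ended without control replicate 6 (adjusted p = 0.163) and with the spike block (0.0932). Nog, the gene of the BMP antagonist noggin, and Bambi, which encodes a receptor-like protein with no kinase domain, were below the median probe set and did not pass (0.00056 and -0.10, adjusted p = 0.994 and 0.0818). All silenced values of Bambi were below both controls, at 106 to 112 against 117 and 119.

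Smad7, which encodes the inhibitory Smad that blocks and degrades type I receptors and is itself a TGF-beta target, rose. It read 325, 313, 313, 313 and 312 on silenced replicates 1, 2, 3, 4 and 7 against 197 and 202 on controls. The groups were far apart for their spread, at 315 ± 5.32 (SD, n = 5) against 200 ± 3.44 (SD, n = 2), a 1.53-fold rise (log2 difference 0.62, SE 0.055, adjusted p = 0.00013). Smad6, the inhibitory Smad of the BMP branch, did not pass, at 93.0 ± 2.09 (SD, n = 5) against 93.8 ± 3.78 (SD, n = 2), below the median probe set. The corepressor genes Ski (-0.18), Skil (0.38) and Tgif1 (0.13) did not pass. Skil read 794, 1241, 1422, 1543 and 1540 on silenced replicates 1, 2, 3, 4 and 7 against 924 and 1026, so that replicate 1 was below both controls and the other 4 above both. Ski read 683, 598, 530, 600 and 587 against 659 and 701, with replicate 1 between the controls and the other 4 below. Without replicate 1 Skil passed (0.55, adjusted p = 0.00295), as did Ski in the other direction (-0.23, adjusted p = 0.0413). A dim second Skil probe set passed with all arrays (0.29, adjusted p = 0.00326).

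**Figure D4:**
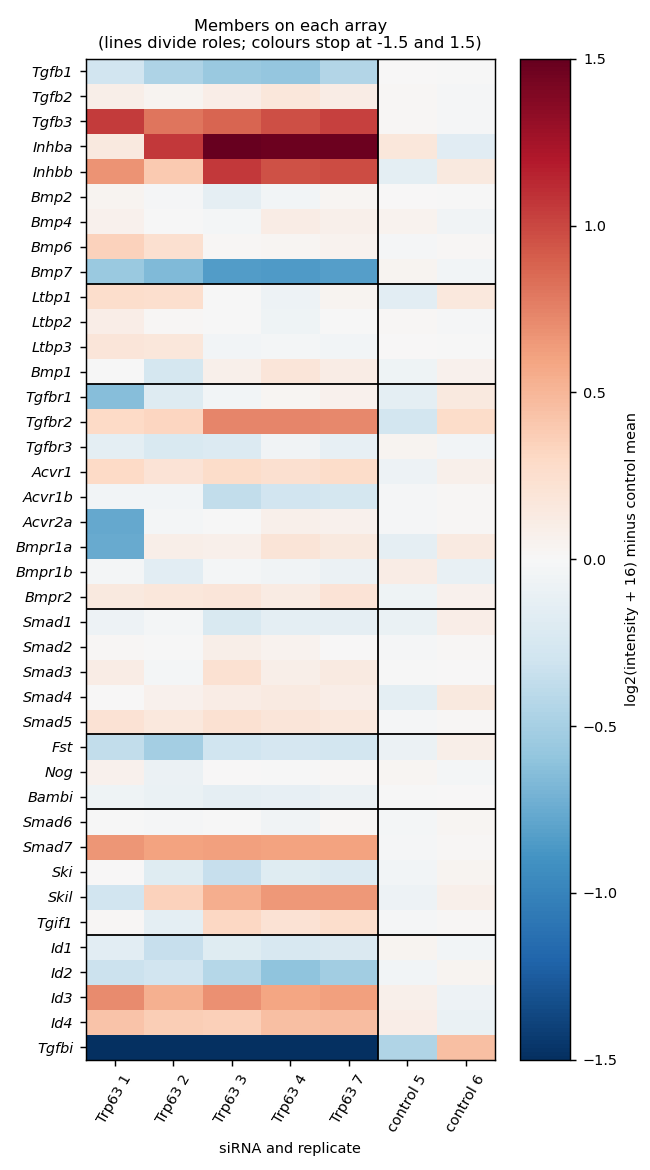
Level of the 40 genes on each of the 7 arrays, as log2(intensity + 16) minus the mean of the 2 controls (red above, blue below; colours stop at -1.5 and 1.5), with lines between roles. Smad7, Id3 and Id4 are red and Tgfb1, Bmp7, Id2 and Tgfbi blue on all 5 silenced arrays, and replicate 1 differs from the others at Inhba, Tgfbr1, Acvr2a, Bmpr1a and Skil.

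The target genes split, and the Id family did not move as 1 group. The Id genes encode helix-loop-helix proteins that lack a DNA-binding region, hold other such factors inactive and are well-known BMP targets. Upstream sequence of the targets is shown because these genes passed in both directions. Windows from RefSeq (GRCm38.p6), 250 bases that end at the base before the transcription start, matched Id2, Id3, Id4 and Tgfbi, and windows matched 27 of the 40 genes by symbol (37 windows). Capitals mark 3 motifs, searched on both strands: CAGAC, the box bound by Smad3 and Smad4; GGCGCC, a GC-rich box of BMP Smads; and the p53 family decamer. Sequences are printed 5′ to 3′ on the strand of the gene.
Id2: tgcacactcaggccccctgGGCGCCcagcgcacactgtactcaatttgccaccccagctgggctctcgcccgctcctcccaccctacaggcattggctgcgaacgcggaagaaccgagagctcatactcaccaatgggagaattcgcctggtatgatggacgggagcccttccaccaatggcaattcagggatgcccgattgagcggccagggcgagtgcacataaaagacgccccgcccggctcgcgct
Id3: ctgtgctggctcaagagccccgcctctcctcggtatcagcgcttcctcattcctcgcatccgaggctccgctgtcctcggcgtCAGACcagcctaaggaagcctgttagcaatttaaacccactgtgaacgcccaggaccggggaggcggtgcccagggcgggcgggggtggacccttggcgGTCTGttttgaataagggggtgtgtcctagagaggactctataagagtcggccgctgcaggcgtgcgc
Id4: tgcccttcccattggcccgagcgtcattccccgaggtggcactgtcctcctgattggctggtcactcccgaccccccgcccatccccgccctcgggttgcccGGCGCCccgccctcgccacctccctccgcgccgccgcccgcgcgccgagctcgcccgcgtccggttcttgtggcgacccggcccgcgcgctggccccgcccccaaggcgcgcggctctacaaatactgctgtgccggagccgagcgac
Tgfbi: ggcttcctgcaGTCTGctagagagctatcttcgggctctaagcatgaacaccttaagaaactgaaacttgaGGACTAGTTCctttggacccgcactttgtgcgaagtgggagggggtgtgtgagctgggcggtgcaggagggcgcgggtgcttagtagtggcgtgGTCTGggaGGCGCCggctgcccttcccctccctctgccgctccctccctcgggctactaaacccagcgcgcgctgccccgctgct
These are chr12:25096093-25096342 (minus strand) for Id2, chr4:136143572-136143821 (plus) for Id3, chr13:48260866-48261115 (plus) for Id4 and chr13:56609336-56609585 (plus) for Tgfbi. Id3 held CAGAC, on 1 strand or the other, with first bases 167 and 68 bases upstream of the start, and Id2 and Id4 each held GGCGCC, at 231 and 148 bases. Tgfbi held CAGAC at 239 and 85 bases, GGCGCC at 77 bases and a p53 family decamer at 179 bases. CAGAC occurred in 42.2% of all 32851 windows and in 17 of the 37 windows of the 40 genes, GGCGCC in 9.6% and in 8, and the decamer in 7.1% and in 4. A match is a description of letters and not a binding site.

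Id3 read 1287, 1142, 1264, 1190 and 1204 on silenced replicates 1, 2, 3, 4 and 7 against 825 and 742 on controls, all silenced values being higher (1.54-fold, log2 difference 0.63, SE 0.074, adjusted p = 0.000649). Id4 read 288, 277, 273, 292 and 295 against 225 and 195, also with no overlap (1.33-fold, log2 difference 0.41, SE 0.069, adjusted p = 0.00387). Its call ended without control replicate 6 (adjusted p = 0.0617). Of the other 2 Id4 probe sets, both below the median, 1 passed (0.21, adjusted p = 0.0137).

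Id2 went down. It read 390, 401, 361, 318 and 337 on silenced replicates 1, 2, 3, 4 and 7 against 476 and 508 on controls, a 1.35-fold fall (log2 difference -0.43, SE 0.096, adjusted p = 0.0153). The second Id2 probe set also fell (-0.33, adjusted p = 0.0285), and the last, a dim one, did not pass (-0.00021), and the mean over the 3 was -0.25. The Id2 call ended without control replicate 5 (adjusted p = 0.0666) or 6 (0.131) and with the spike block (0.0543). Id1 read 1266, 1110, 1246, 1198 and 1220 against 1460 and 1378, lower on all 5 arrays, and missed the threshold (log2 difference -0.23, SE 0.070, adjusted p = 0.0533). It passed under 8 of 19 alternatives, among them without silenced replicate 1 (adjusted p = 0.0198).

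Tgfbi, the gene of a secreted matrix protein named for its induction by TGF-beta, had the largest difference of the 40 genes. It read 274, 238, 195, 247 and 247 on silenced replicates 1, 2, 3, 4 and 7 against 880 and 1662 on control replicates 5 and 6. The controls differed from each other by much more than the silenced arrays did, yet both lay far above them (240 ± 28.8, SD, n = 5, against 1271 ± 553, SD, n = 2). The fall was 4.81-fold (log2 difference -2.27, SE 0.21, adjusted p = 0.000169), -1.81 without control replicate 6 and -2.72 without control replicate 5. The other 3 Tgfbi probe sets also fell, with differences of -2.23, -2.26 and -1.84 (adjusted p = 0.000123, 5.6e-05 and 7.9e-05).

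Further genes of the pathway were read from 6 lists. Of 85 measured, 13 rose, 4 fell and 68 did not pass. The shares of all genes to set beside each list are 8.03% higher and 8.57% lower. The median difference of the 85 genes was -0.0063. Dropping control replicate 6 left 9 that rose and 1 that fell, and dropping silenced replicate 1 gave 10 that fell. Among 17 other ligand genes only the faint Bmp8b rose (0.21, adjusted p = 0.00567), a call that ended without control replicate 6 (adjusted p = 0.0809). None fell, 3 being lower at an unadjusted p under 0.05. Of 8 other receptor and co-receptor genes, Neo1, which encodes neogenin, fell (-0.28, adjusted p = 0.0227) and 7 did not pass. The Neo1 call ended without control replicate 5 (adjusted p = 0.0561) or 6 (0.182) or silenced replicate 3 (0.05002) and with the spike block (0.109). Of 16 other extracellular regulator genes 1 rose, 1 fell and 14 did not pass. Thbs1, whose product thrombospondin-1 can release TGF-beta from its latent form, rose from 1106 ± 63.5 (SD, n = 2) to 3123 ± 569 (SD, n = 5), a log2 difference of 1.47 (adjusted p = 0.000415). Fstl3, a relative of follistatin, fell (-0.23, adjusted p = 0.0112), a call that ended when control replicate 6 was left out (adjusted p = 0.115).

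Of 15 other intracellular regulator genes 4 rose, 1 fell and 10 did not pass. Pmepa1, which encodes a TGF-beta-induced membrane protein that sequesters receptor Smads, rose from 959 ± 106 (SD, n = 2) to 1717 ± 46.8 (SD, n = 5), a log2 difference of 0.83 (adjusted p = 0.000112). The kinase gene Hipk2 rose by 0.99 (adjusted p = 6.1e-05), or 0.40 as the mean over its probe sets, and the antiproliferative gene Tob1 by 0.55 (adjusted p = 0.00208). Tgif2, a corepressor gene related to Tgif1, fell (-0.41, adjusted p = 0.0104), and its call ended without control replicate 6 (adjusted p = 0.116) and with the spike block (0.0664). The fourth gene that rose, named after its values were seen, was Nedd4l (0.74, adjusted p = 0.0141), a ubiquitin ligase gene whose call ended without control replicate 5 (adjusted p = 0.0555) or 6 (0.135) and whose mean over probe sets was 0.35.

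Of 18 genes known to respond to TGF-beta in various cells, the test was passed upward by 7 and downward by 1. Among all genes it was passed by 8.03% and 8.57%. Of the 18, 15 lay above the median probe set. Where only probe sets above the median were kept, 27.2% of them passed in either direction. The median difference of the list was 0.27. Ccn2 rose from 347 ± 19.1 (SD, n = 2) to 1133 ± 92.8 (SD, n = 5), a log2 difference of 1.66 (adjusted p = 1.0e-05), and its relative Ccn1 rose by 1.12 (adjusted p = 5.2e-05). The fibronectin gene Fn1 rose by 1.13 (adjusted p = 3.0e-05), or 0.64 as the mean over its probe sets. Snai2, the gene of a zinc finger repressor, fell from 1691 ± 55.3 (SD, n = 2) to 715 ± 28.9 (SD, n = 5), a log2 difference of -1.22 (adjusted p = 1.1e-05). The other genes of this list that rose, named after their values were seen, were Cdkn2b (0.76, adjusted p = 0.00221), a cell cycle inhibitor gene, Tsc22d1 (0.55, adjusted p = 0.00229), Col1a1 (0.44, adjusted p = 0.0032) and Tnc (0.47, adjusted p = 0.0282). The Col1a1 call ended without control replicate 6 (adjusted p = 0.0504). The Tnc call ended without either control (adjusted p = 0.216 without replicate 5 and 0.0868 without replicate 6) and without silenced replicate 3 (0.0556), 4 (0.0614) or 7 (0.0639), and with the spike block (0.0562). Col1a1 is also a fibroblast marker, a list of which 15 of 17 did not pass and whose median difference was 0.036. The summed level of that list was 3050 to 3335 on silenced arrays against 2519 to 2908 on controls. The part of fibroblasts in the Col1a1 rise was not tested.

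None of 11 BMP response genes outside the Id family passed with limma, and their median difference was -0.074. Their differences ran from -0.15 to 0.16. Gata2 (-0.15, adjusted p = 0.109) and Msx1 (0.16, adjusted p = 0.148) had the smallest p of these, 2 of the 11 having an unadjusted p under 0.05. Gata2 passed without silenced replicate 1 (-0.18, adjusted p = 0.0337) and with array weights (-0.18, 0.0326).

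**Figure D5:**
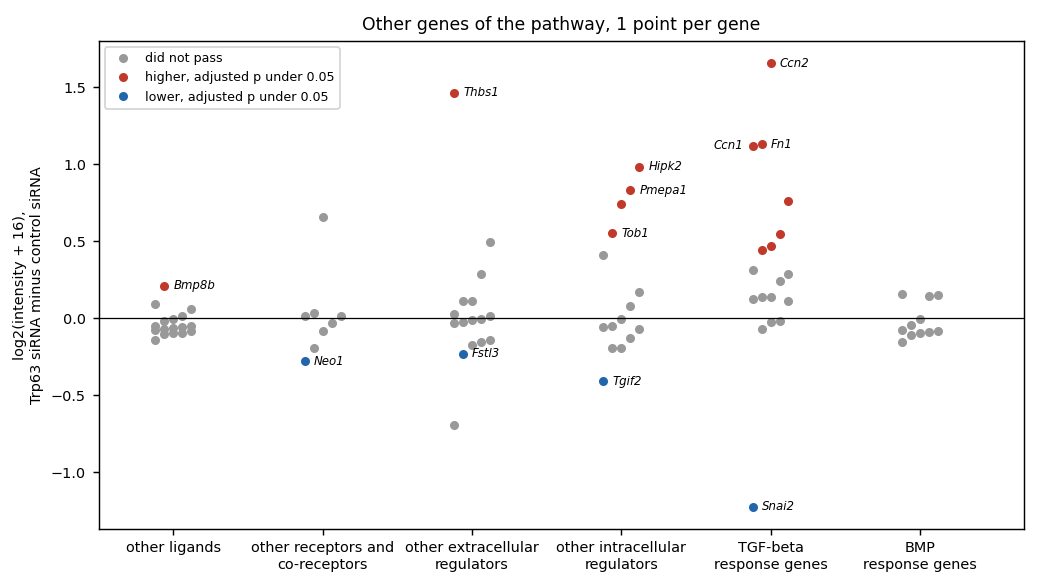
Difference on the log2(intensity + 16) scale (Trp63 siRNA, n = 5, minus control siRNA, n = 2) of 85 further genes of the pathway in 6 lists, with 1 point per gene, red for the 13 that rose, blue for the 4 that fell and grey for the 68 that did not pass. Ccn2 (1.66) and Thbs1 (1.47) are highest and Snai2 (-1.22) is lowest, and all BMP response genes are grey.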

How the data were processed

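Total RNA of mouse primary keratinocytes was labelled and hybridised to Affymetrix arrays, 1 per sample, per the labels' protocols. The 7 deposited columns hold intensity, linear and 1 value a probe set. The authors' probe summary, background correction and normalisation are not given in the sources used here. Median intensity lay between 207 and 214, so values were used as deposited, with no detection calls.

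The array's own controls (64 of 22690 probe sets) were not tested. Probe sets with 1 gene symbol (20380) gave 12393 genes, each read from its brightest probe set. log2(intensity + 16) was fitted with limma 3.58.1 in R 4.3.3 (lmFit, then eBayes, its prior variance following the mean level). Adjusted p-values are Benjamini-Hochberg values from 22626 probe sets, and 0.05 was the threshold. A fold change is on this scale and understates the change of dim genes. The fit was tested on simulated data. Groups came from sample titles. The members, the lists and the tests were chosen with earlier results of these data known, so no pattern here is independent support of those results.

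All 40 genes are named, with values of every array for those that passed and for brighter genes whose call depended on 1 array. Of each further list up to 4 genes were named, in order of p among those that passed, and Nedd4l, Cdkn2b, Tsc22d1, Col1a1 and Tnc were added after their values were seen. A list in which none passed gave its 2 genes of lowest p, and marker lists gave their brightest. Alternatives were scaling of the arrays (quantile, median), a pseudocount of 1 or 64, keeping probe sets above percentile 25 or 50 by mean, eBayes that is robust or has no trend, array weights, the mean over a gene's probe sets, blocks for the melanocyte marker and spike splits of the arrays (at the widest gap in mean level), and dropping 1 array at a time. Where a control was dropped, the other was assumed to vary like the other group. Figures were drawn with matplotlib 3.10.9.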

Additional observations from a re-analysis of the deposited data

Results flagged for a closer look

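Among the silenced arrays, 1 value stood apart from the other 4 by Dixon's 95% criterion for 4 of 55 genes examined (chance gives about 1 in 20). Silenced replicate 1 held 3 of the 4. Acvr2a read 204.9 there against 353 to 380 on the other silenced arrays. Bmpr1a read 464.8 there against 837 to 912, and its other 4 probe sets were also lowest on that array among all 7 arrays, at 409, 381, 317 and 143. Smad7 read 324.7 there against 312 to 313, a small excess over 4 very close values, and its call did not depend on that array. Snai2 read 665.8 on silenced replicate 3 against 720 to 739, all far below the controls.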

How the results depend on the processing

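Of 739 values of the 40 genes under the alternatives, 655 kept their sign and their side of the threshold. No paired analysis was possible because the groups share no replicate number. Trp63 passed under every alternative. Over all probe sets, 3618 passed, 5458 with the melanocyte block, 1920 with the spike block, and 1374 to 5502 when 1 array was left out (1374 without control replicate 6, 2013 without control replicate 5 and 5502 without silenced replicate 1). Of the 40 genes 4 to 11 rose and 3 to 7 fell when 1 array was left out, and 4 rose and 3 fell with the spike block. Of the 85 further genes 9 to 16 rose and 1 to 10 fell when 1 array was left out, and the count that fell was 9 with array weights, 7 with the mean over probe sets and 2 with the spike block. The spike block leaves only silenced replicates 1 and 4 beside controls, so fewer arrays carry the comparison. Among the 40 genes, signs changed only for genes that had not passed. With array weights the difference was 0.0062 for Acvr2a, 0.098 for Bmpr1a, -0.013 for Ltbp2 and -0.0075 for Ltbp3. It was 0.12 for Bmpr1a with the mean over probe sets, -0.0034 for Bmp1 with the melanocyte block, and 0.011 and 0.0061 for Smad6 with quantile normalisation and median centring. When 1 array was left out, differences ran from -0.19 to 0.026 for Acvr2a, -0.046 to 0.090 for Bmp1, -0.043 to 0.0030 for Bmp2, -0.0050 to 0.093 for Bmp4, -0.19 to 0.12 for Bmpr1a, -0.18 to 0.039 for Bmpr1b, -0.062 to 0.25 for Ltbp1, -0.013 to 0.029 for Ltbp2, -0.028 to 0.030 for Nog, -0.066 to 0.23 for Smad4 and -0.046 to 0.024 for Smad6. Apart from the fewer arrays noted, the cause was not tested. No background or detection values were used here, so how far dim genes lie above background is unknown.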
